A study of Mus musculus with 3 samples.

Results

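The nuclear genes for the subunits of the respiratory chain were described complex by complex in mouse CD4+ T cells labelled Th1, comparing cells of a B16-F10 tumour with cells of lymphoid organs. Members were all genes whose symbol begins with Nduf (complex I), Uqcr (complex III), Cox4 to Cox8 (complex IV) or Atp5 (complex V), plus Sdha, Sdhb, Sdhc and Sdhd (complex II). The rule matched 92 of 23337 genes. Setting the 7 Ndufaf assembly factors aside left 85 subunit genes, of which 38 belong to complex I, 4 to complex II, 8 to complex III, 18 to complex IV and 17 to complex V. The rule goes by symbol, so it also takes in Atp5s and Atp5sl, which are not subunits of ATP synthase, and Ndufa4, which is now placed in complex IV.

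Donor mice were wild type, of the strain C57/Bl6j, and 7 weeks old in every group. There were 2 lymphoid libraries, titled spleen, whose tissue label lists the draining lymph nodes and other lymph nodes besides the spleen. For the tumour there was 1 library, from B16-F10, a transplantable melanoma line of the same strain. The labels do not say whether animals were pooled or separate, so the spread between libraries may be technical.

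The respiratory chain passes electrons from NADH (complex I) and succinate (complex II) through complex III to oxygen at complex IV, and the proton gradient built on the way drives ATP synthase, complex V. Complex I has a peripheral arm that oxidises NADH and reduces ubiquinone, and a membrane arm that pumps protons. Most subunits are encoded in the nucleus and a few in mitochondrial DNA. T cells raise their mitochondrial respiration during activation and depend on it for memory.

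Values are FPKM, fragments scaled to transcript length and library depth, divided by median-of-ratios factors so that the median gene is level between libraries, and are called scaled FPKM below. A log2 change is the tumour value minus the lymphoid mean on log2(scaled FPKM + 1), which understates the change of low genes. Estimated depths were 11460000 and 15630000 fragments in the lymphoid libraries and 3270000 in the tumour library. T cell markers were high in all libraries: Cd3e was at 126 and 106 in the lymphoid libraries and 111 in the tumour library. Cd4 was at 67.9, 59.3 and 73.9 and Cd3d at 54.3, 51.7 and 55.1, while Cd3g was lower in the tumour library, at 187.6, 215.6 and 144.4. The summed level of these 4 T cell markers was 435.9, 432.6 and 384.7, lowest in the tumour library. The summed level of 4 Th1 markers was 97.9, 90.7 and 74.1. Among them the cytokine gene Ifng was lower in the tumour library, at 4.53 against 12.9 and 12.0, though not with counting error added (limma adjusted p = 0.217), and Il12rb2 was at 12.0 against 11.05 and 9.45. The summed level of 7 melanocyte markers was 1.35, 1.49 and 3.35 in lymphoid library 1, lymphoid library 2 and the tumour library, with Mlana at 0 in every library. For 2 CD8 markers the sums were 0.558, 0.814 and 5.27, and for 5 myeloid markers 1.39, 1.07 and 6.24. The part of these other cells in the results below was not tested. In bulk RNA, fewer cells of a type and less RNA per cell cannot be told apart.

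Of the 85 subunit genes, 76 had a mean of at least 1 FPKM as deposited and were tested. In the tumour library 12 of the 76 were called lower and 0 higher (limma, Benjamini-Hochberg adjustment over all tested genes). Among all 9800 tested genes 9.17% were called lower and 12.7% higher. With no test, 44 of the 76 subunits lay below both lymphoid libraries and 18 above both, against 42.6% and 41.3% of all tested genes. The median log2 change of the subunits was -0.20, and that of all tested genes was -0.01. As deposited, without scaling, 73 subunits were called lower, as were 77.8% of all tested genes, while 4.74% were called higher. All 18 subunits that lay above both lymphoid libraries after scaling lay below both as deposited, so every level above the lymphoid libraries given here is relative to the median gene. The lone tumour library is assumed to vary like the lymphoid ones, which leave 1 residual degree of freedom. With the tumour library's estimated counting error added, Ndufs5 was the single subunit still called (0.309% of all tested genes were then called lower), and its call ended when a copy of the gene was counted with it, as described next.

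**Figure D1:**
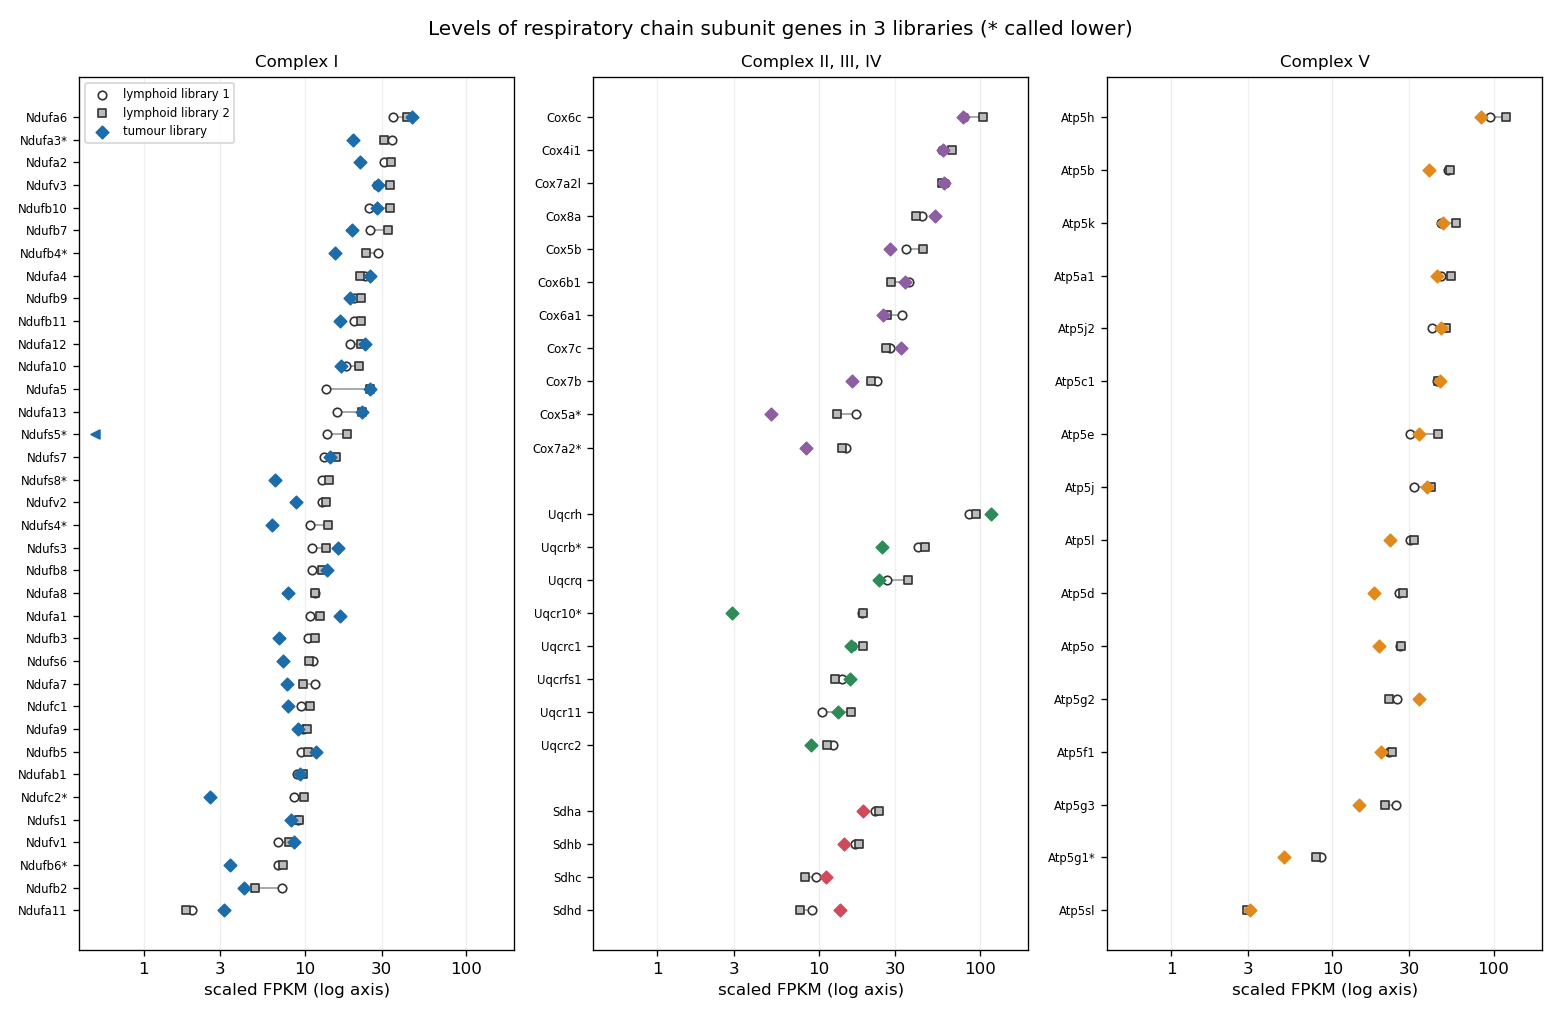
Scaled FPKM (log axis) of tested subunit genes by complex (1 is not drawn), with an open circle for lymphoid library 1, a grey square for lymphoid library 2 and a coloured diamond for the tumour library. A star marks the 12 genes called lower; the arrow for Ndufs5 stands for a tumour value below the axis, and most diamonds lie at or just left of the lymphoid points.

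Ndufs5, an accessory subunit of the complex I membrane arm (ENSMUSG00000028648.13, GRCm38 chromosome 4, 123712710 to 123718202, minus strand), showed the largest difference of any subunit. Its own row held 13.7 and 18.3 scaled FPKM in the lymphoid libraries and 0.00335 in the tumour library, for a log2 change of -4.07 (SE 0.21, limma adjusted p = 0.000552). The row of BC002163, a processed pseudogene on chromosome 16 (ENSMUSG00000081824.5, 42955631 to 42955949, plus strand), did the opposite: it held 0.00316 and 1.36 in the lymphoid libraries and 14.9 in the tumour library. The 319 bases of this copy match the Ndufs5 transcript from its start codon onwards at 99.4% identity, with 2 differences. Counted from the A of the start codon, these are T81C and A105G, giving the Ndufs5 base first. Bases 61 to 160 of both are shown because they hold both differences, with the differing bases in capitals.
Ndufs5: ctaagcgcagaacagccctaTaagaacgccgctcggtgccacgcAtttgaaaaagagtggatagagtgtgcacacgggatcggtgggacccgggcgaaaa
BC002163: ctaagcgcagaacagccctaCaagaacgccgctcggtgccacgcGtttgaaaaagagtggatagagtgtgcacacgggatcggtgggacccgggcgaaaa

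Summed, the 2 rows held 13.7 and 19.7 scaled FPKM in the lymphoid libraries and 14.9 in the tumour library. The tumour value thus lay between the lymphoid ones, and the summed log2 change was -0.14 (SE 0.24, limma adjusted p = 0.729, where the other settings tried for the Ndufs5 row gave from 7.66e-32 to 0.0459). The rows differ in length, 319 nt for the copy and 599 nt for Ndufs5, so a sum of FPKM is an approximation. A fragment of the shorter copy adds more FPKM: the 8.62 FPKM deposited for the copy in the tumour library correspond to about 9 fragments. The Ndufs5 row would hold about 18.2 tumour fragments at the lymphoid level. In fragments the pair thus stood below that level, and the place between the lymphoid values holds for the FPKM sum alone. The sum was formed after the values had been seen. With the copies summed 11 subunits were called lower, and 9.19% of all tested genes.

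**Figure D2:**
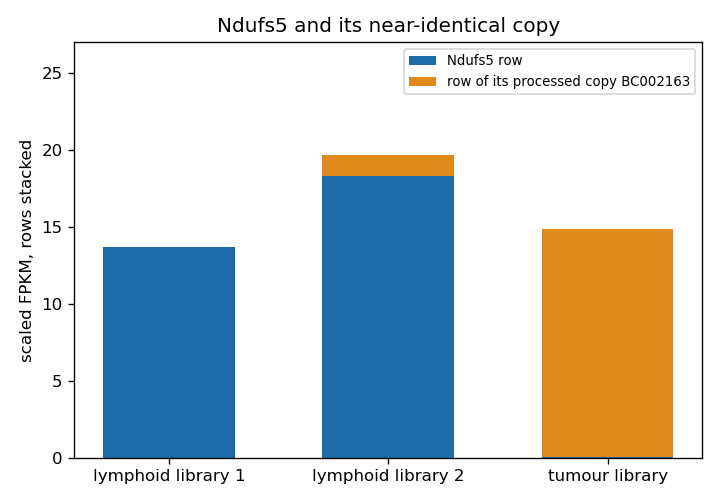
Scaled FPKM of the Ndufs5 row (blue) and of its processed copy BC002163 (orange), stacked, in each of the 3 libraries. The lymphoid bars are mostly or wholly the Ndufs5 row and the tumour bar of 14.9 is the copy's row.

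A near-identical transcript of another gene, at 95% identity or more over at least 50% of the length, was found in GENCODE for 13 of the 85 subunits. Atp5l had 9 such copies, and Atp5h and Uqcrb had 3 each. A copy had a row of its own in the deposited tables for Ndufs5 and Cox7c alone. Cox7c, a small complex IV subunit, was at 27.7, 26.2 and 32.7, and at 31.4, 28.5 and 34.5 with its copy Gm10012 added. Levels of these 13 genes are uncertain where reads were shared.

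Complex I, the entry point for NADH, had 7 of its 37 tested subunits called lower (18.9%, beside 9.17% of all tested genes). It had 0 called higher, beside 12.7% of all tested genes, and its median log2 change was -0.23. After Ndufs5 the largest fall was in Ndufc2, a membrane arm subunit (ENSMUSG00000030647.8, chromosome 7, 97400003 to 97407802). It was at 8.58 and 9.93 in the lymphoid libraries and 2.58 in the tumour library, far below both (log2 change -1.51, SE 0.16, limma adjusted p = 0.00337). About 3.34 fragments stood behind the tumour value, where 12.0 would have been found at the lymphoid level, and the call ended with counting error added (adjusted p = 0.306, the highest of the settings tried, which ranged from 0.00129).

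The 7 catalytic core subunits, which carry the flavin and the iron-sulphur clusters or bind ubiquinone, differed among themselves. Ndufs8, which binds a pair of iron-sulphur clusters, was at 12.7 and 14.2 in the lymphoid libraries and 6.58 in the tumour library, and was the one core subunit called (log2 change -0.93, limma adjusted p = 0.0165). Ndufv2, which carries an iron-sulphur cluster next to the flavin, had 12.8 and 13.5 against 8.79, with an adjusted p of 0.069 that misses the threshold. The lone tumour library lay below both lymphoid libraries for these, as it did for 42.6% of all tested genes. The Ndufs8 value rested on about 12.2 tumour fragments, and its call ended with counting error added.

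Further core subunits were not called. Ndufs1, the largest subunit, was at 9.07, 9.23 and 8.24. Ndufs7, which carries an iron-sulphur cluster near the ubiquinone site, was at 13.2, 15.7 and 14.4, between the lymphoid values. Ndufs3 was at 11.2, 13.5 and 16.1 and Ndufv1, the flavin-bearing NADH-binding subunit, at 6.84, 7.95 and 8.53, both above the lymphoid libraries without a call.

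By module, the median log2 change was -0.27 over the 10 genes of the NADH-oxidising module, -0.07 over the 6 of the ubiquinone module and -0.33 over the 20 tested genes of the membrane arm. The membrane arm held 5 of the 7 complex I calls: Ndufs5, Ndufc2, Ndufb6, Ndufb4 and Ndufa3. These are 25% of its 20 tested genes, beside 10% in the NADH-oxidising module, 16.7% in the ubiquinone module and 9.17% of all tested genes. The Ndufs5 call ended with its copy summed. Genes of the arm had a median length of 693.5 nt, and 22.1% of tested protein-coding genes from 501 to 750 nt were called lower. In the arm 7 genes rested on fewer than 10 tumour fragments. The part of length and depth in the arm's share was not tested. Ndufb6 was at 6.84 and 7.30 against 3.44 (log2 change -0.86). Ndufb4 was at 28.6 and 23.9 against 15.4 (-0.73), and its limma adjusted p of 0.0497 was just under the threshold. Ndufa3 was at 35.0 and 31.1 against 19.8 (-0.71). All of these lay below both lymphoid libraries, yet other membrane arm genes lay above them: Ndufa1, needed for assembly of the arm, was at 10.8, 12.4 and 16.4, and Ndufa11 at 2.00, 1.82 and 3.14.

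Ndufs4, an accessory subunit of the NADH-oxidising module whose loss causes Leigh-like disease in mice, was the remaining complex I call. It was at 10.8 and 13.9 in the lymphoid libraries and 6.30 in the tumour library (log2 change -0.86, limma adjusted p = 0.0344). Ndufb3, just outside the threshold, was at 10.5, 11.7 and 6.92 (adjusted p = 0.0503). Ndufa6, the most abundant complex I gene, was at 35.2, 43.2 and 46.6. Ndufa5 shows how wide the lymphoid spread can be, at 13.6 and 25.6 in the lymphoid libraries and 25.5 in the tumour library. It was 1 of 2 tested subunits that differed by at least 1.5-fold between the lymphoid libraries, the other being Uqcr11.

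**Figure D3:**
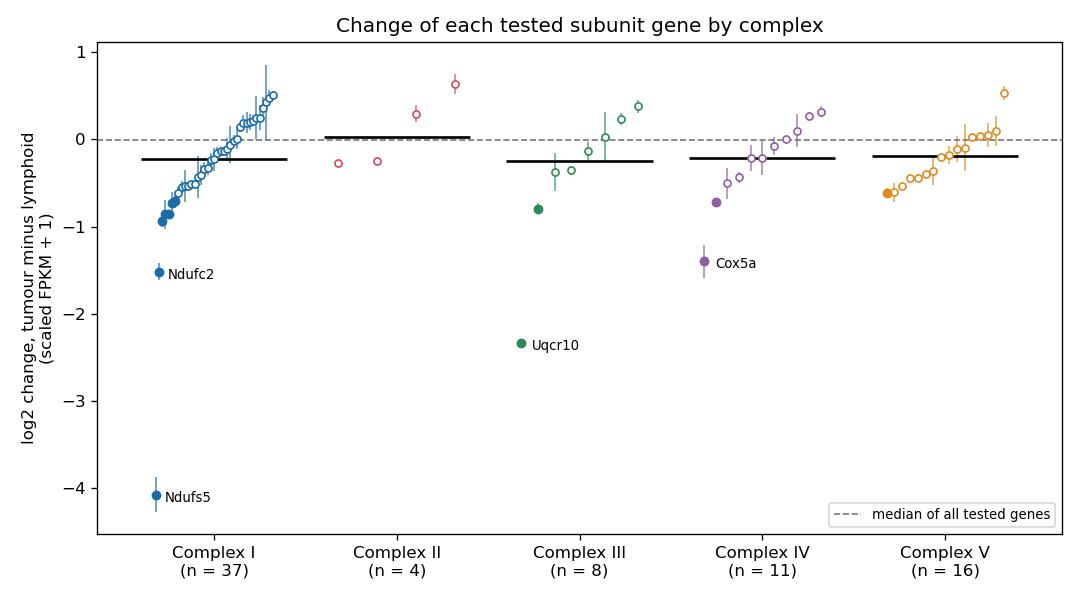
Log2 change of each tested subunit by complex, sorted within the complex; the vertical line spans the changes against either lymphoid library, filled points were called lower, the black bar is the median of the complex and the dashed line that of all tested genes. The medians run from -0.25 in complex III to 0.02 in complex II, and Ndufs5, Uqcr10, Ndufc2 and Cox5a stand apart below the rest.

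Complex II, succinate dehydrogenase, is the link between the citric acid cycle and the chain. It had 0 calls among its 4 subunits, beside 9.17% of all tested genes called lower and 12.7% higher. The pair of subunits that oxidise succinate lay below both lymphoid libraries, with the flavoprotein gene Sdha at 22.3, 23.6 and 18.8 and the iron-sulphur gene Sdhb at 16.9, 17.7 and 14.4. The pair that anchors the enzyme in the membrane lay above both, with Sdhc at 9.59, 8.24 and 11.2 and Sdhd at 9.16, 7.69 and 13.6. As deposited both anchor genes were below both lymphoid libraries, with log2 changes of -0.76 for Sdhc and -0.44 for Sdhd. The scaled log2 changes were -0.27, -0.25, 0.30 and 0.63 in that order, and the smallest limma adjusted p was 0.0573, for Sdhd. The summed level of the 4 genes was 58.0, 57.2 and 57.9, the same within the spread of the lymphoid libraries. Complex II had no subunit with under 10 tumour fragments, and a median of 49.3.

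Complex III hands electrons from ubiquinol to cytochrome c. Among its 8 subunits 2 were called lower (25%, beside 9.17% of all tested genes). Uqcr10, one of the smallest (ENSMUSG00000059534.8, chromosome 11, 4701973 to 4704342, minus strand), was at 18.5 and 18.9 in the lymphoid libraries and 2.91 in the tumour library. It fell by 2.33 on the log2 scale (SE 0.16, limma adjusted p = 0.000969). The tumour value rested on about 2.39 fragments where 15.4 would stand at the lymphoid level, and with counting error added the adjusted p was 0.208, against 0.0114 or lower at the other settings tried. No near-identical copy of Uqcr10 was found in the annotation.

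Uqcrb, which takes part in ubiquinone binding, was at 41.6 and 45.6 against 24.7 (log2 change -0.79, adjusted p = 0.0344) and has 3 near-identical copies. The subunits known for the larger structural and catalytic roles were not called. Uqcrc1 and Uqcrc2, the core proteins, were at 16.2, 18.8 and 15.8 and at 12.3, 11.4 and 9.03. Uqcrfs1, the Rieske iron-sulphur protein, was at 13.9, 12.6 and 15.7. Uqcrh, the hinge protein and the most abundant of the complex, was at 85.7 and 94.5 against 117. The tumour library lay below, below, above and above the lymphoid libraries for these 4 genes. The complex thus held genes on both sides of their lymphoid levels.

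Complex IV, cytochrome c oxidase, had 2 of 11 tested subunits called lower (18.2%, beside 9.17% of all tested genes). Cox5a, an accessory subunit on the matrix side (ENSMUSG00000000088.7, chromosome 9, 57521274 to 57532426), was at 17.2 and 13.01 in the lymphoid libraries and 5.06 in the tumour library (log2 change -1.40, SE 0.21, limma adjusted p = 0.00993). Its tumour value rested on about 6.19 fragments against 18.4 at the lymphoid level. Cox5b, its partner in name and place, was at 34.9, 44.8 and 27.6, below both without a call.

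Several complex IV subunits exist as a ubiquitous form and a form of heart, muscle, lung or testis, and here the ubiquitous forms carried the levels. Cox4i1 was at 58.6, 67.7 and 59.5, while Cox4i2 was at 0.104 in lymphoid library 1 and at 0 in the other libraries. Cox6a1 was at 32.7, 26.5 and 25.3, with Cox6a2 at or below 0.0847 throughout. Cox6b1 was at 36.5, 27.97 and 34.4. Its testis form Cox6b2 was at 0 in both lymphoid libraries and 1.38 in the tumour library, on about 1.44 fragments, which is too few to read as expression.

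Cox8a was at 43.8, 40.2 and 52.6, while Cox8b and Cox8c stayed at or below 0.254. Cox7a2 was called lower, at 14.9 and 14.0 against 8.41 (log2 change -0.71, adjusted p = 0.0333). Its muscle form Cox7a1 was at 0.503 in lymphoid library 1 and at 0 in the other libraries. Cox7a2l, related in sequence and studied for a part in supercomplexes of complexes III and IV, was level at 60.8, 58.7 and 59.9. Cox6c, the most abundant gene of the complex, was at 80.0, 104.8 and 79.0. The 9 subunits below the test's filter were Cox4i2, Cox6a2, Cox6b2, Cox7a1, Cox7b2, Cox8b, Cox8c, Ndufa4l2 and Atp5s. No switch to a tissue form was seen among these genes at this depth.

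Complex V, ATP synthase, had 1 of 16 tested members called lower (6.25%, beside 9.17% of all tested genes). The range of log2 changes was the narrowest after complex II, from -0.61 to 0.53. The catalytic head had 0 calls among its 5 genes and a median log2 change of -0.18. Atp5a1, subunit alpha, was at 46.9, 54.5 and 44.7 and Atp5b, subunit beta, at 52.1, 53.7 and 39.8. Atp5c1, the rotating subunit gamma, was at 44.9, 45.1 and 46.3. Atp5d, subunit delta, was at 25.9, 27.5 and 18.1, below both without a call (-0.54, adjusted p = 0.0821), and Atp5e, subunit epsilon, was at 30.5, 45.1 and 34.7. The tumour library thus lay below both lymphoid libraries for 3 of the 5. Atp5h, in the peripheral stalk and the most abundant gene of the complex, was at 95.2, 119.6 and 83.1.

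The proton-carrying c ring is built from identical mature proteins made by 3 genes, and these differed in direction. Atp5g1 was called lower, at 8.53 and 7.86 against 5.02 (log2 change -0.61, limma adjusted p = 0.0442), on about 6.57 tumour fragments. Atp5g3 was also below both, at 24.7, 21.1 and 14.7, without a call. Atp5g2 lay above both, at 25.1, 22.4 and 34.7 (0.53, adjusted p = 0.0946). Their summed level was 58.3, 51.3 and 54.4, with the tumour library between the lymphoid ones. Of the lymphoid sum Atp5g2 and Atp5g3 made up near-equal parts, while in the tumour library Atp5g2 was the highest of the 3. As deposited the log2 change of Atp5g2 was -0.61, so its rise is relative to the median gene. Atp5g1 has 1 near-identical copy and Atp5g2 has 2, none with a row, so their levels are uncertain.

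Subunit transcripts are short, with a median of 743.5 nt over the tested members against 2657 nt over all tested genes, and 11 of the 12 calls sat among those of up to 1000 nt. Those 11 came from 50 tested subunits, and the 26 longer ones held 1 call, Ndufs4. Up to 500 nt 1 of 10 was called, from 501 to 750 nt 8 of 29, and from 751 to 1000 nt 2 of 11. These are 10%, 27.6% and 18.2%, beside 12.8%, 22.1% and 14.7% of all tested protein-coding genes in the same classes. Median log2 changes of the subunits up to and above 1000 nt were -0.35 and -0.14. Among all tested protein-coding genes the same division gave 17.0% called lower up to 1000 nt and 7.70% above, with medians of -0.09 and -0.01. The median tumour gene of that shorter class rested on 10.5 fragments, against 28.5 in the longer class. The part of length and depth in the subunit calls was not tested. Of the 12 subunits called lower, 6 rested on fewer than 10 tumour fragments.

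**Figure D4:**
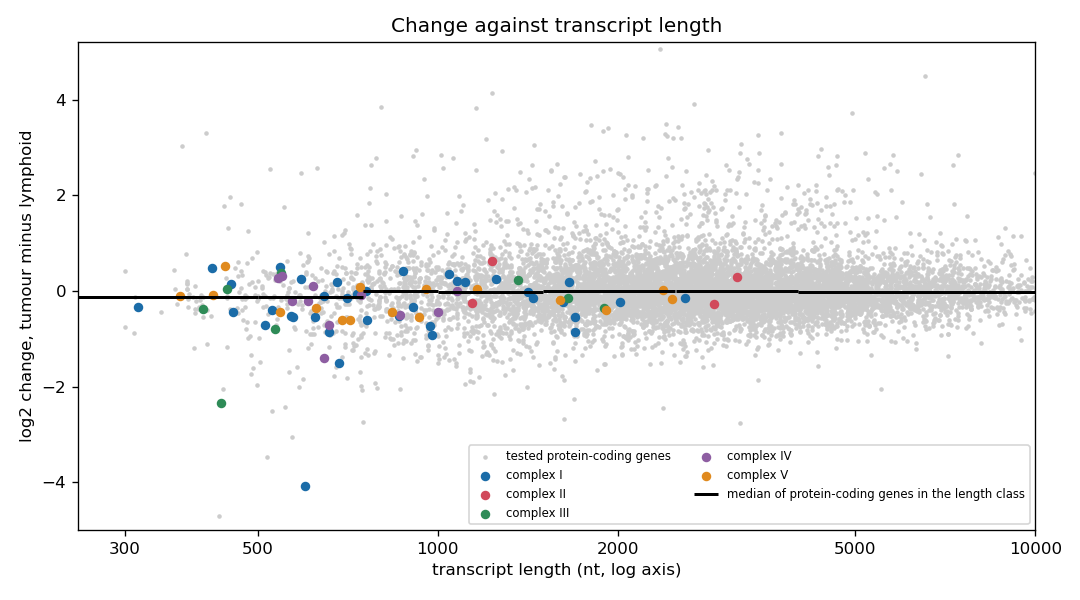
Log2 change against transcript length (log axis) for tested protein-coding genes (grey) and for the subunits, coloured by complex; black bars are medians of the protein-coding genes by length class. The 501 to 750 nt class has a median of -0.13 for protein-coding genes and -0.36 for subunits. In the class up to 500 nt the medians are -0.12 and -0.10.

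Assembly factors, which build the complexes without staying in them, were taken from a list of 47 genes, of which 37 were tested. Of these 8 were called lower (21.6%, beside 9.17% of all tested genes) and 2 higher (5.41%, beside 12.7%), and the median log2 change was -0.10. The complex I factors Ndufaf1, Ndufaf3 and Ndufaf4 were lower, at 3.13, 2.80 and 1.11, at 3.50, 3.51 and 1.56, and at 2.20, 1.95 and 0.713. Sdhaf1, which helps insert iron-sulphur clusters into complex II, was at 9.33 and 11.2 against 3.47 (log2 change -1.33, adjusted p = 0.00646). Coa6, a copper-handling factor of complex IV, was at 6.81 and 6.59 against 2.26. Sco2, a copper chaperone of complex IV, was at 2.87 and 2.61 and Coa4 at 1.87 and 2.68, each at 0 or under 1 estimated fragment in the tumour library. Transcripts annotated to Ncaph2 and Tymp, which have rows of their own, match Sco2 near-identically, so its level is uncertain. Sdhaf1 has 1 near-identical copy, without a row, and its level is likewise uncertain. Acad9 rose, from 3.31 and 3.17 to 7.47 (1.00, adjusted p = 0.00906), as did the copper-related factor Cox19, from 2.87 and 2.49 to 5.30, though as deposited the log2 changes were 0.02 for Acad9 and -0.15 for Cox19. With counting error added 0 of these 10 calls were left.

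Of 19 tested chain genes outside the symbol rule, 0 were called, beside 9.17% of all tested genes called lower and 12.7% higher. Cyc1, the cytochrome of complex III, was at 9.81, 8.47 and 6.88, and the cytochrome c gene Cycs at 6.04, 4.77 and 4.76. The ADP/ATP carrier Slc25a5, which has 2 near-identical copies without a row, was at 48.5, 46.3 and 38.8. The 13 mitochondrially encoded subunits were not analysed here. Among 17 citric acid cycle genes 2 were called lower (11.8%, beside 9.17% of all tested genes) and 0 higher. Dld, a dehydrogenase component shared by pyruvate and 2-oxoglutarate dehydrogenase, was at 9.01 and 8.997 against 2.58, and Sucla2 at 7.26 and 6.96 against 3.51. Both calls ended with counting error added (limma adjusted p = 0.0988 and 0.372).

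Regulators of mitochondrial genes had 1 lower and 3 higher calls among 14 tested, or 7.14% and 21.4%, beside 9.17% and 12.7% of all tested genes. Nrf1, a factor that binds many respiratory chain promoters, was at 5.50 and 6.08 against 9.77 (log2 change 0.67, adjusted p = 0.036). As deposited the change of Nrf1 was -0.37, so that its direction holds only relative to the median gene. The partners of the ETS-family factor GABP parted: Gabpa was at 8.11 and 7.84 against 4.33, and Gabpb1 at 6.06 and 7.17 against 12.7. Tfb2m, a mitochondrial transcription factor, was at 3.42 and 3.16 against 6.64. Gabpb1 and Tfb2m were lower as deposited (-0.21 and -0.13). With counting error added 0 of the 4 were called.

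Promoter sequences, from 250 bases before to 50 after the start of transcription, were found in RefSeq (GRCm38.p6) for 67 subunits. The core of the NRF1 motif, read as GCGCA, any base, then GCGC, was present on either strand in 17 of the 67, or 25.4%, against 12.8% of 7175 tested genes and 5.19% of all 27025 genes with an entry. CCGGAAG, an ETS-family core, was present in 23.9% of the subunits' promoters and 23.6% of those of tested genes. AAGATGGCG, a YY1 core, was present in 10.4% and 4.45%. The motifs were searched separately, and a promoter can count under several. Subunits with the NRF1 letters had a median log2 change of -0.21 (n = 17) and those without -0.18 (n = 46). Among the 12 genes called lower the core was found in 2 of the 11 with an entry, Ndufs5 and Ndufb4. The window around it in Ndufs5 is shown because it lies upstream of the gene's own first exon (chr4:123718250-123718309, minus strand, GRCm38.p6, motif in capitals, ending 88 bases before the RefSeq start). The RefSeq start used here lies inside the GENCODE span of the gene given above.
Ndufs5 promoter: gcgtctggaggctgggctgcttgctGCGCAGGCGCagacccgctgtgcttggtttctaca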

How the data were processed

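RNA of 2 lymphoid libraries and 1 tumour library was analysed from 1 deposited table each, with 23832 rows. Per the labels' protocols these are stranded total RNA libraries after ribosomal RNA removal. Per the submitters' processing notes, the authors used mm10, kallisto and DESeq2, with no role stated. Which program made these values, its annotation and its filters: not given in the sources used here. FPKM is the unit assumed for the deposited values, inferred from values that are not whole and sums that differ between libraries. For 252 symbols in several rows the highest mean was kept, leaving 23337 symbols. All 85 subunits matched GENCODE M21 (GRCm38, the assembly of mm10), whose APPRIS principal transcript of lower-median length gave lengths. Depth was estimated from the commonest value (within 3%) of FPKM times length among single-transcript genes below 2 FPKM whose length reaches 1000 nt. Fragments behind a value follow from depth and full transcript length, and as estimates carry no interval.

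The test was limma 3.58.1 (R 4.3.3) and its trended prior variance, run on log2(scaled FPKM + 1). It took the 9800 genes whose mean reached 1 FPKM as deposited; the values were then divided by size factors of 1.29, 1.33 and 0.58. P-values were adjusted by Benjamini-Hochberg and called below 0.05. In a further fit the Poisson variance of the tumour fragments was added to the squared SE. Because the values are not counts, no count test was used. The fit was tested on simulated data with known changes of 2 sizes. Most of the larger were called and none of the smaller. These changes were set on values before 1 was added, so their sizes do not compare directly with the log2 changes given here. The simulated tumour library was given the spread of the lymphoid ones, without counting error. Far fewer genes were changed in the simulation than were called in these data, so its adjusted threshold was stricter. It therefore does not measure how often changes of such size are called here. Copies were sought with blastn 2.17.0. Named genes were all called subunits, and the highest, most lowered and most raised of each complex. Core and paralogous subunits were also named, as were up to 4 called genes of each companion list. Further genes were chosen after their values were seen. These were Ndufb3, Ndufa1, Ndufa5, Cox5b, Cox7c, Atp5c1, Atp5d, Atp5e, Atp5l, Uqcr11, Cyc1, Cycs, Ppargc1a, Ppargc1b, Ndufaf1, Ndufaf3, Ndufaf4, Acad9, Cox19 and BC002163. Single values of 1 member are not reported here. Members and lists were chosen with earlier results of these data known.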

Additional observations from a re-analysis of the deposited data

How the results depend on the processing

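The scaling sets the level of every result. As deposited, 73 subunits were called lower, 71 were at least 1.5-fold lower than both lymphoid libraries (13 after scaling) and 0 at least 1.5-fold higher (1 after scaling, Ndufa11), and the medians of complexes I to V were -1.33, -1.05, -1.32, -1.34 and -1.32, beside -0.96 for all tested genes, of which 7620 were called lower and 465 higher. With library totals, 3 subunits were called lower and 23 higher, 3 and 31 passed the fold, the medians were 0.51, 0.75, 0.49, 0.56 and 0.57, beside 0.65 for all tested genes, and 279 and 4370 of all genes were called. With no filter 7 subunits were lower and 2 higher, 3 were past the fold upwards, the complex IV median was -0.087 and 7364 of all genes were higher. At a mean of at least 5 FPKM 6 subunits were lower, 0 were past the fold upwards, and 191 and 211 of all genes were called. A pseudocount of 5 called 1 subunit higher, Sdhd. Counting error left 1 subunit lower, and 30 and 332 of all genes. Upper-quartile scaling, a pseudocount of 0.1, no trend and summed copies kept the count of lower subunits within 1.5 times.

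Without lymphoid replicate 1 or 2, where no test is possible, 3 subunits passed the fold upwards either way, and the median ranged from -0.27 to -0.12 in complex I, from -0.01 to 0.06 in II, from -0.28 to -0.095 in III, from -0.18 to -0.0845 in IV and from -0.32 to -0.12 in V. Of 54 named genes, 17 turned from positive to negative as deposited: Sdhd -0.44, Ndufa11 -0.31, Atp5g2 -0.61, Cox6b1 -1.04, Cox7a2l -1.15, Cox8a -0.83, Ndufa6 -0.90, Ndufs3 -0.73, Ndufs7 -1.09, Ndufv1 -0.85, Sdhc -0.76, Uqcrfs1 -0.86, Uqcrh -0.79, Gabpb1 -0.21, Tfb2m -0.13, Nrf1 -0.37 and Timm13 -0.26. With library totals 18 turned from negative to positive, among them the called Atp5g1 (0.062), Ndufa3 (0.042) and Ndufb4 (0.015). These turns follow from the scaling itself; for calls lost or gained at other settings the cause was not tested. No paired analysis was possible because the tumour library carries no replicate number.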

Other observations

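Genes of mitochondrial import and membrane structure, not described above, had 5 lower and 1 higher calls among 26 tested (19.2% and 3.85%, beside 9.17% and 12.7% of all tested genes), with a median log2 change of -0.23. Timm8b, a chaperone of the intermembrane space, was at 10.5 and 9.68 in the lymphoid libraries and is listed at 0 in the tumour library, and Timm10 was at 1.97 and 2.51 and also listed at 0. Opa1, which fuses the inner membrane, was at 7.02 and 6.86 against 3.19, and Timm13 was at 4.86 and 5.31 against 9.37, with a log2 change of 0.77 that was -0.26 as deposited. With counting error added 0 of these 6 calls were left. Timm8b starts 97 bases from Sdhd on the opposite strand of chromosome 9. After scaling, Sdhd was at 9.16, 7.69 and 13.6, above both lymphoid libraries, whereas Timm8b lay below both. As deposited the log2 change of Sdhd was -0.44, beside a median of -0.96 over all tested genes.

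Ppargc1a, the coactivator PGC-1alpha of mitochondrial genes, was not tested, since its mean as deposited is under 1 FPKM, and was picked after its values were seen. It was at 0.455 and 0.336 scaled FPKM in the lymphoid libraries and 2.92 in the tumour library, on about 35.8 fragments. Its relative Ppargc1b was at 1.75, 2.38 and 2.12. The 7 melanocyte markers summed to 3.35 in the tumour library, with Pmel at 1.49 and Sox10 at 0.770, and their part in the Ppargc1a level was not tested.

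With Ndufs5 included, 42 of the 9800 tested genes held less than 1 estimated fragment in the tumour library at a mean lymphoid level of 5 scaled FPKM or more.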
